A study of Mus musculus with 6 samples.

Results

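mmu-miR-149-3p, mmu-miR-135a-1-3p and mmu-miR-680 are 3 mouse miRNAs whose brightest probe was faint, near the background, on the array of unstimulated cells and clearly above it on the array labelled high glucose; below they are written without the species prefix. They are 3 of the 1247 mouse miRNAs on the array. They were chosen as not detected on control and detected on high glucose, and so for the difference between those arrays: that difference is given below as a description and supports nothing. That rule names only the control and high glucose arrays, written below as the arrays of the choice, and 27 miRNAs meet it. The members were chosen with earlier results of these data known. The other 4 arrays are therefore outside the rule, but are not shown to be independent of the choice.

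The cells were mProx24, an established mouse kidney line with the character of the proximal tubule (strain C57B6, as the labels write it). Each of the 6 conditions was measured on 1 array, with Cy3-labelled product of 100 ng total RNA, so there are no replicates, no test between conditions is possible and no p-value is given. Oxygen was 20% for control, high glucose and palmitate, and the control received no stimulus. The palmitate array (titled High FFAs) is of cells given 150 µM palmitate with 0.15% bovine serum albumin for 9 h, and the hypoxia array of cells kept at 1% oxygen for 12 h. The triple stimuli array combines low oxygen (1%, for 12 h before palmitate), high glucose and palmitate (150 µM with 0.15% albumin, for 9 h). The triple stimuli + rapamycin array adds 0.4 µg/ml rapamycin, an inhibitor of the mTORC1 kinase complex, for 12 h before palmitate. The labels do not give the glucose concentration or how long it was applied, and they name albumin only with palmitate, whose parts in a result cannot be told apart. All cultures shared one serum-containing medium, per the labels.

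A miRNA is made from a hairpin precursor. Drosha and Dicer cut the hairpin into a duplex of a 5′ arm and a 3′ arm, and one arm usually stays in an Argonaute protein, where its seed (bases 2 to 8) pairs with target mRNAs. miR-149-3p and miR-135a-1-3p are 3′ arms, and in both hairpins the 5′ arm, miR-149-5p or miR-135a-5p, is the better studied product. miR-680 is a mouse miRNA annotated at several loci. Proximal tubular cells reabsorb glucose and burn fatty acids, and they are among the kidney cells exposed to high glucose, lipid and low oxygen in diabetes.

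The mature sequences are shown because the members turned out to share no seed; capitals mark the seed (sequences and positions from RefSeq, build GRCm38.p6).
miR-149-3p: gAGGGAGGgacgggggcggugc
miR-135a-1-3p: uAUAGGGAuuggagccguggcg
miR-680: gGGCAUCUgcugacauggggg
miR-149-5p: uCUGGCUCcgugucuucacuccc
miR-149-3p is encoded at chr1:92850421-92850442 on the plus strand, in the hairpin gene Mir149, which lies within the bounds of Gpc1 (glypican 1, a cell-surface heparan sulfate proteoglycan). miR-135a-1-3p is encoded at chr9:106154179-106154200 on the plus strand, in Mir135a-1, within the bounds of Glyctk (glycerate kinase) and of the long noncoding RNA gene D030055H07Rik. miR-680 has 3 loci of the same mature sequence, at chr6:129691541-129691561 (plus strand, Mir680-1), chr12:35194849-35194869 (minus strand, Mir680-3) and chrX:144297790-144297810 (plus strand, Mir680-2), and none overlaps another gene in the RefSeq gene table. An array cannot tell these 3 loci apart. Whether the hairpins lie in exons or introns was not analysed here.

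The members are rich in G. miR-149-3p has 15 G in 22 bases and a GC content of 81.8%, miR-135a-1-3p has 10 G and 59.1%, and miR-680 has 10 G in 21 bases and 66.7%. The opposite arm miR-149-5p has 4 G in 23 bases and 60.9%.

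Each array held 3105 miRNA probes and 40 spots for each member, spread over 2 probes for miR-149-3p and 4 each for miR-135a-1-3p and miR-680. The array probes are short DNA runs of 10 to 13 bases. They pair with the 3′ end of the miRNA, away from the seed, and within a member each longer probe extends the shorter one. The shortest and the longest probe of each member are shown because signal differed along these ladders; capitals mark the last base, which the probe next shorter in length lacks.
miR-149-3p, 10 bases: gcaccgcccc
miR-149-3p, 11 bases: gcaccgccccC
miR-135a-1-3p, 10 bases: cgccacggct
miR-135a-1-3p, 13 bases: cgccacggctccA
miR-680, 10 bases: cccccatgtc
miR-680, 13 bases: cccccatgtcagC
The 11-base probe of miR-149-3p pairs with bases 12 to 22 of the miRNA, and its GC content is 90.9%. No other mature miRNA in the RefSeq table contains the full target of any of these probes, although 230 of the 1247 array miRNAs were not matched to that table by name.

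A spot counted as above background where the scanner software flagged it as well above background, and a miRNA as detected where at least 0.5 of the spots of any of its probes, outlier spots left out, carried that flag. By this rule 162 to 193 miRNAs were detected on an array. The 164 on control left 1083 not detected there. The negative-control spots averaged 3.88 to 4.29 processed signal units across arrays, none of them was flagged well above background, and their 99th percentile lay between 14.8 and 15.4. The label of the cell type was checked against 11 kidney-associated miRNAs, of which 7, all of the miR-30 and miR-10 families, were detected on all 6 arrays, while miR-204-5p, miR-215-5p, miR-194-5p and miR-192-5p were detected on none. Also undetected on every array were the 5 epithelial miRNAs of the miR-200 family. Of 14 markers of other cell types (neurons, skeletal muscle, blood, endothelium, hepatocytes, fibroblasts and smooth muscle), the muscle-associated miR-206-3p was detected, on all 6 arrays.

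The labels of the high glucose and palmitate arrays disagree between the deposited files, and this touches every result here. In the authors' deposited table of processed values, the column of the high glucose sample holds the values of the scanner file deposited under palmitate, and the palmitate column holds those of the high glucose file. When the values were rebuilt from the scanner files as described further on, 100% of the miRNAs above each column's floor were equal within 0.1% to the exchanged file, against 0.985% for the file of the same label in each case. The other 4 columns each equalled their own file for 100% of miRNAs. Which of the assignments is right cannot be told apart from these files. The text names each array by the label of its scanner file.

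The brightest probe of miR-149-3p, 11 bases long, gave a processed signal of 17.5 ± 4.73 on control (SD over 19 spots, 3 of them well above background). On high glucose it gave 84.7 ± 12.6 with all 20 spots above background. On palmitate the signal was 15.9 ± 5.66 with 1 of 19 spots above background. Palmitate thus looked like control for this miRNA. On hypoxia the signal was 20.2 ± 3.82 with 5 of 20 spots above background. On the triple stimuli array it was 48.4 ± 5.89 with 19 of 19 spots, and with rapamycin 71.8 ± 9.52 with 20 of 20. The non-outlier spots therefore fell into a low set (control, palmitate, hypoxia) and a high set (high glucose and both triple stimuli arrays) with no overlap, since the highest spot of the low set was 28.2 and the lowest of the high set 38.2. Among the outlier spots left out, the triple stimuli spot was 13.7, within the range of the low set, and the palmitate spot was 34.1. The SD here is the spread of spots on 1 array, a measurement error, and holds nothing of the variation between cultures. In RNA from a whole culture, fewer cells that express a miRNA and less of it per cell cannot be told apart.

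miR-135a-1-3p, read by its 13-base probe, was the member nearest to detection on control, with 24.0 ± 7.96 over 10 spots and 4 of them above background. High glucose gave 98.1 ± 9.58, palmitate 27.9 ± 5.66 (9 spots) and hypoxia 36.8 ± 7.50. The triple stimuli array gave 53.8 ± 8.81 and the one with rapamycin 89.5 ± 12.3, each over 10 spots. On palmitate 8 of 9 spots were above background, and on hypoxia 10 of 10, so this miRNA passed the detection rule on every array but control. The gain from control to palmitate is a step over the detection threshold with little change in signal: the lowest palmitate spot was 19.1 and the highest control spot 36.9.

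miR-680, read by its 11-base probe, gave 14.5 ± 7.30 on control with 1 of 10 spots above background, a mean below the 99th percentile of the negative controls. It gave 76.5 ± 6.05 on high glucose with 10 of 10 spots. Palmitate (16.2 ± 5.73, 1 of 10 spots) and hypoxia (18.8 ± 4.71, 3 of 9) left it undetected. On the triple stimuli array it reached 34.4 ± 7.95 and with rapamycin 52.5 ± 8.52, with 10 of 10 spots above background on each. High glucose and rapamycin stood clear of control spot by spot, with lowest spots of 64.9 and 37.8 against a highest control spot of 29.8, while the lowest triple stimuli spot, 26.3, lay within the control range.

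**Figure D1:**
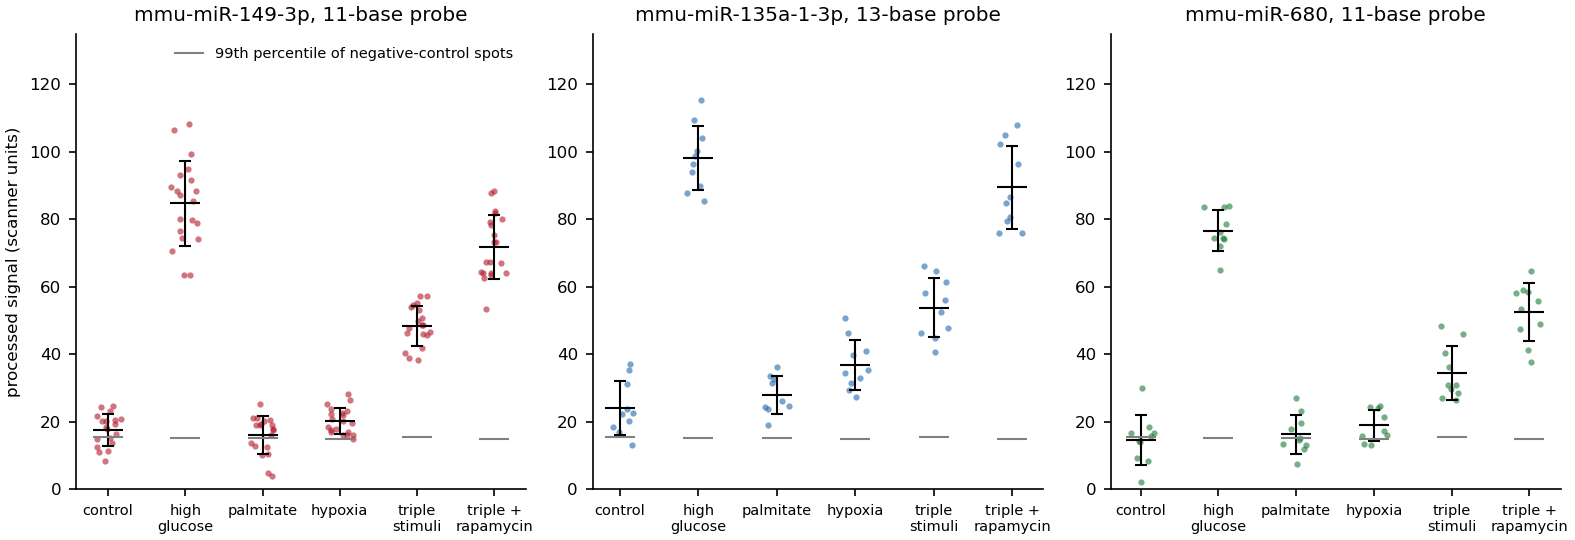
Processed signal (scanner units, linear axis) of every non-outlier spot of each member's brightest probe on the 6 arrays, with the mean and SD over spots in black and the 99th percentile of negative-control spots as a grey tick. All 3 members are highest on high glucose and next on triple stimuli with rapamycin, and control, palmitate and hypoxia lie close to the grey ticks for miR-149-3p and miR-680.

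The shorter probes of a member did not all report it. The 10-base probe of miR-149-3p averaged between 2.31 on control and 10.7 on triple stimuli, and none of its spots was above background on any array, so all detection of miR-149-3p rests on 1 probe. For miR-135a-1-3p the 12-base probe was undetected on control (16.5 ± 3.61) and detected on high glucose (69.4 ± 11.8), triple stimuli (40.2 ± 7.94) and rapamycin (58.7 ± 1.92), but its 10-base and 11-base probes stayed between 5.69 and 19.8 and passed the rule on no array. The single detections of miR-135a-1-3p on palmitate and on hypoxia thus came from the 13-base probe alone. miR-680 differed from both, since its 4 probes moved alike. They averaged 71.2 to 76.5 on high glucose, 30.3 to 34.4 on triple stimuli, 51.1 to 54.9 with rapamycin and 11.9 to 18.8 on the 3 arrays without detection. All 4 were detected on the same 3 arrays.

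**Figure D2:**
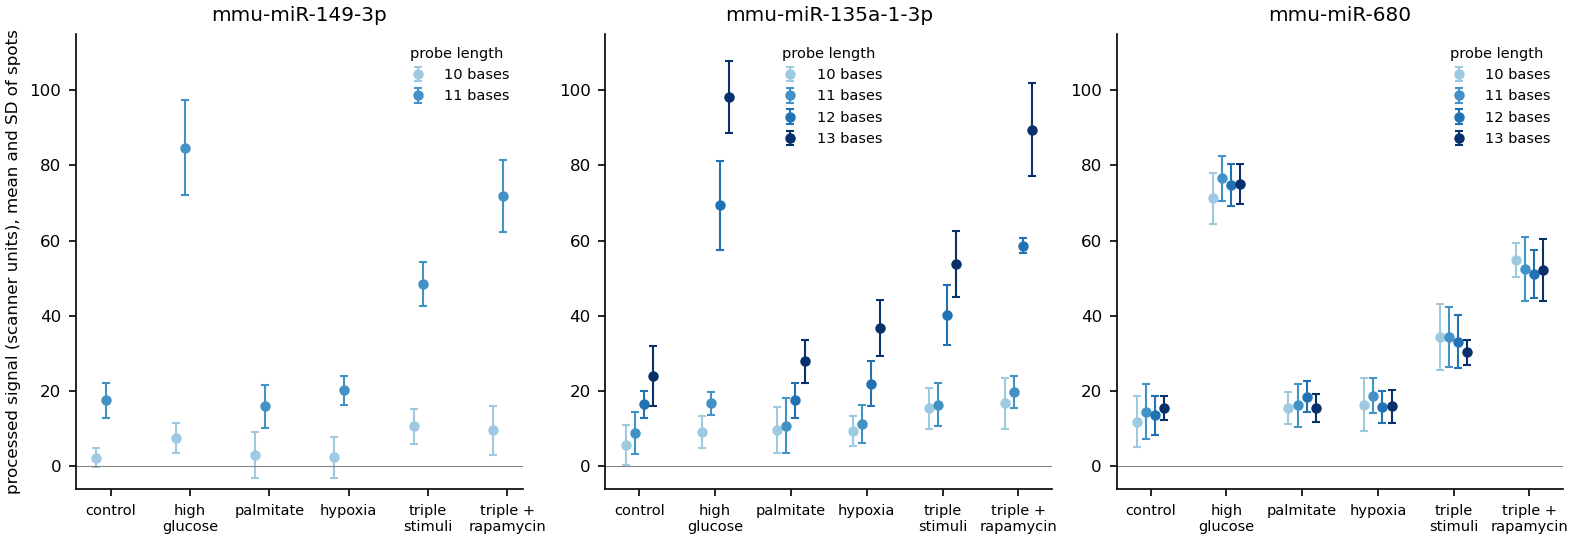
Mean and SD over spots of the processed signal (scanner units) for each probe of a member on the 6 arrays, shaded by probe length in bases. For miR-149-3p and miR-135a-1-3p the shortest probe stays low on all arrays (at most 10.7 and 16.7), whereas the 4 probes of miR-680 move together.

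For comparisons, signals were scaled to the 75th percentile, on each array, of the 281 probes that all 6 arrays detected, and the brightest probe stood for its miRNA. A miRNA was called higher at 1.5-fold or more, where both arrays detected it and the difference passed 2 standard errors of the spots, or where, detected on one array only, its bound reached that fold. The bound sets the bright signal against the dim probe's own signal or the dim array's lowest detected-probe signal, whichever was higher. It is written "at least" where the lowest detected-probe signal was used. For miR-135a-1-3p on control the probe's own signal was the higher (27.5 against 22.7). Such a value is a plain ratio with spot error, not a minimum. Where both arrays detected the miRNA, a call says that the 2 arrays differ by more than 2 standard errors of the spots, and single spots can still overlap. A call from a bound rests on the fold alone and was not held against that error. Neither kind of call says that the conditions differ.

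In the comparison that chose them, high glucose over control, the scaled signal of miR-149-3p was at least 3.51-fold higher (79.7 against 20.1). That of miR-680 was at least 3.17-fold higher (72.0 against 16.6), and that of miR-135a-1-3p was 3.35-fold higher (92.3 against 27.5). All 3 were called higher, as were 9.42% of the 191 miRNAs tested. The choice favoured this count, which therefore supports nothing. Of the 27 miRNAs detected on high glucose and not on control, 7 had a bound of at least 1.5-fold, and the members are the first 3 by that bound. Just after them came miR-721 (at least 3.05-fold) and miR-290-5p (at least 2.93-fold), then miR-500-3p (1.52-fold) and miR-5131 (at least 1.52-fold). The first below the threshold was miR-1249-3p (1.36-fold).

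The comparison of triple stimuli with hypoxia uses neither array of the choice. Both arrays are at 1% oxygen, and the triple stimuli array adds high glucose and palmitate with albumin. Its palmitate was given for 9 h after 12 h of low oxygen, so the schedules differ too. miR-149-3p was at least 2.14-fold higher on triple stimuli (47.3 against 20.4), the highest rank of the 185 miRNAs tested. miR-680 was at least 1.52-fold higher (33.6 against 19.0), at the threshold. The spots of its 11-base and 13-base probes did not overlap between the arrays. Those of its 10-base and 12-base probes did, with lowest triple stimuli spots of 18.8 and 20.6 and highest hypoxia spots of 29.2 and 22.7. miR-135a-1-3p, detected on both, was 1.42-fold higher (52.5 against 37.1, log2 difference 0.50 with a spot SE of 0.12) and was not called, and its spots overlapped. So 2 of 3 members were called higher, where 9.19% of all miRNAs tested were, with a median log2 difference of 0.12 over all tested. Of the 185 miRNAs tested, 17 were called higher here, but 5 with median scaling, 6 with quantile and 8 with all-probe scaling, where the median was -0.08, -0.05 and -0.01. Under 3 of the 5 other scalings miR-680 fell below the threshold (log2 bounds of 0.39 to 0.47 with quantile, median and all-probe scaling), while the bound of miR-149-3p was 0.89 to 1.14 under all 5. With normexp background correction and an offset of 50, or with the mean of all probes in place of the brightest, no member was called, and the values of miR-149-3p were 0.37 and 0.38.

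Triple stimuli with rapamycin against triple stimuli also uses neither array of the choice, and here all 3 members were detected on both arrays. miR-135a-1-3p was 1.51-fold higher with rapamycin (79.3 against 52.5, log2 difference 0.59, spot SE 0.10), and its spots did not overlap between the arrays. miR-149-3p was 1.35-fold higher (63.7 against 47.3, log2 difference 0.43, spot SE 0.06) and miR-680 1.38-fold (46.5 against 33.6, log2 difference 0.47, spot SE 0.13), and the spots of both overlapped. All 3 differences exceeded 2 spot standard errors but 1 passed 1.5-fold, beside 2.05% of the 195 miRNAs tested. The members ranked 4, 5 and 8 from the top of those 195, whose median log2 difference was -0.07. The count was 0 with normexp and its offset and with the mean of all probes, 2 without scaling and 3 with the 75th percentile of all probes. Rapamycin therefore accompanied higher, not lower, signal of each member on these 2 arrays.

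The remaining comparisons share the control or the high glucose array with the choice, and comparisons against control share that array with each other. Over control, triple stimuli gave 1.91-fold for miR-135a-1-3p and at least 2.08-fold for miR-149-3p. miR-680 with at least 1.48-fold was not called, so 2 of 3 were called where 6.42% of 187 were. Triple stimuli with rapamycin gave 2.88-fold for miR-135a-1-3p, at least 2.80-fold for miR-149-3p and at least 2.05-fold for miR-680. All 3 were thus called where 9.33% of 193 were. Against control, palmitate and hypoxia called no member. miR-149-3p and miR-680 were below detection on both arrays of each pair and got no fold. miR-135a-1-3p was 1.08-fold higher on palmitate (log2 difference 0.11, spot SE 0.18), which lay within the spot error. On hypoxia it was 1.35-fold higher (log2 difference 0.43, spot SE 0.18). Of all miRNAs, 0% of 171 were called higher on palmitate and 0.575% of 174 on hypoxia. With normexp background correction and its offset, 1 member was called in high glucose over control and 0 in either triple stimuli array over control, and with the mean of all probes 0 were called in triple stimuli over control.

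High glucose also exceeded the arrays of the other stimuli. Over triple stimuli, with both detected, miR-680 was 2.14-fold higher, miR-135a-1-3p 1.76-fold and miR-149-3p 1.68-fold, so 3 of 3 were called where 5.18% of 193 were. Over palmitate, miR-149-3p was at least 3.43-fold higher, miR-135a-1-3p 3.11-fold (detected on both) and miR-680 at least 3.10-fold, so again 3 of 3 were called where 8.42% of 190 were. High glucose was picked as a bright array for these members, so the direction of both comparisons was favoured by the choice.

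The arrays came in the same order at the top for every member: high glucose, then triple stimuli with rapamycin, then triple stimuli, then hypoxia. Each of these steps exceeded 2 spot standard errors of the scaled signal. For miR-135a-1-3p the top step depended on the scaling. Its unscaled signals, 98.1 ± 9.58 on high glucose and 89.5 ± 12.3 with rapamycin, lay within 2 spot standard errors of each other. In the authors' deposited table the top of this order turns for miR-135a-1-3p, whose value is 0.906 with rapamycin and 0.890 in the column that holds the high glucose scanner file. Below that, hypoxia, control and palmitate did not differ by more than 2 spot standard errors in neighbouring pairs for miR-149-3p, nor did hypoxia, palmitate and control for miR-680. For miR-135a-1-3p hypoxia stood above palmitate (37.1 against 29.7, difference 7.42 with SE 3.12), and palmitate and control did not differ by more than 2 spot standard errors. By the scanner files' labels, the 3 bright arrays are the 3 that include high glucose, and the 3 dim ones do not. By the labels of the authors' deposited table, which exchange high glucose and palmitate, the 3 bright arrays are the 3 that include palmitate. The same arrays were also brighter in general. Their scaling factors were 1.06 (high glucose), 1.02 (triple stimuli) and 1.13 (rapamycin), against 0.873 (control), 0.941 (palmitate) and 0.991 (hypoxia). They detected 189, 183 and 193 miRNAs, against 164, 162 and 172. The part of this general brightness in the members' pattern was not tested.

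On the 4 arrays that the stated rule does not name, the members were detected in 8 of 12 cases: 1 on palmitate, 1 on hypoxia (miR-135a-1-3p both times), 3 on triple stimuli and 3 with rapamycin. Of the 1083 miRNAs not detected on control, 0.646% were detected on palmitate, 0.923% on hypoxia, 2.12% on triple stimuli and 2.68% with rapamycin. The members were also chosen as detected on high glucose, so a closer reference is the 24 other miRNAs that were gained there. Of those 24, 5 were detected on palmitate, 9 on hypoxia, 17 on triple stimuli and 21 with rapamycin, so detection on both triple stimuli arrays was common among them too. miR-721, miR-290-5p, miR-5131, miR-1249-3p, miR-3077-5p and miR-3102-5p.2-5p had the same pattern of detection as miR-149-3p and miR-680. Scaled signals on triple stimuli and with rapamycin were 29.5 and 39.9 for miR-721, 26.1 and 41.2 for miR-290-5p, and 21.9 and 25.9 for miR-5131. One of the 24, named after its values were seen, followed oxygen and not glucose: miR-210-3p, a well-known hypoxia-induced miRNA, had scaled signals of 24.7 on control, 24.1 on high glucose, 21.2 on palmitate, and 260.4, 219.2 and 205.9 on hypoxia, triple stimuli and rapamycin. That pattern goes with the oxygen labels of these arrays.

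**Figure D3:**
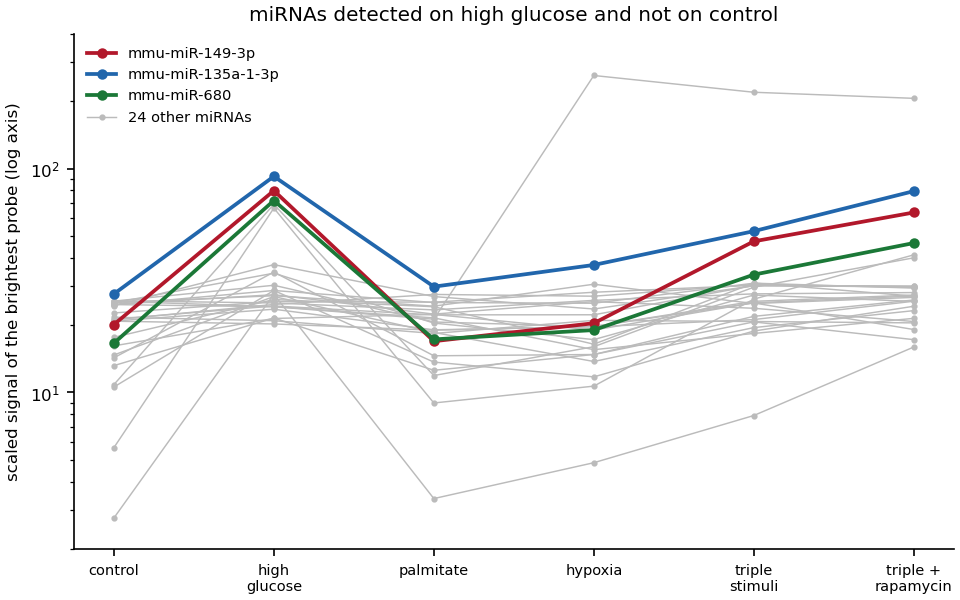
Scaled signal of the brightest probe (log axis) on the 6 arrays for the 27 miRNAs detected on high glucose and not on control, with the 3 members in colour and the 24 others in grey; lines join arrays for reading only. The members lead on high glucose and stay among the highest on both triple stimuli arrays, where the grey line above them is miR-210-3p.

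The other arm of the Mir149 hairpin did not follow miR-149-3p. The hairpins of the members with an annotated opposite arm are shown to place both arms, in capitals.
Mir149: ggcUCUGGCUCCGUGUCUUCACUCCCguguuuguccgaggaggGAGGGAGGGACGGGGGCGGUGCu
Mir135a-1: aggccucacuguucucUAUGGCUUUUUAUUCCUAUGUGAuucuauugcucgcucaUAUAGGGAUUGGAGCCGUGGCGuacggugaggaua
The 18-base probe of miR-149-5p gave processed signals of 53.4 ± 4.73 on control (17 spots), 58.8 ± 12.0 on high glucose and 60.9 ± 8.16 on palmitate. It gave 60.2 ± 7.01 on hypoxia, 54.6 ± 8.44 on triple stimuli and 57.0 ± 8.24 with rapamycin, and was detected on all 6 arrays. In triple stimuli over hypoxia, which uses neither array of the choice, miR-149-5p differed after scaling by a log2 value of -0.19 (spot SE 0.06), against a bound of 1.09 for miR-149-3p. In comparisons that share an array with the choice it differed by -0.14 (spot SE 0.07) between high glucose and control and by -0.28 (spot SE 0.06) between rapamycin and control, against bounds of 1.81 and 1.49 for miR-149-3p. Levels of the arms are not compared with each other, because different probes give different signal for the same amount of RNA.

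**Figure D4:**
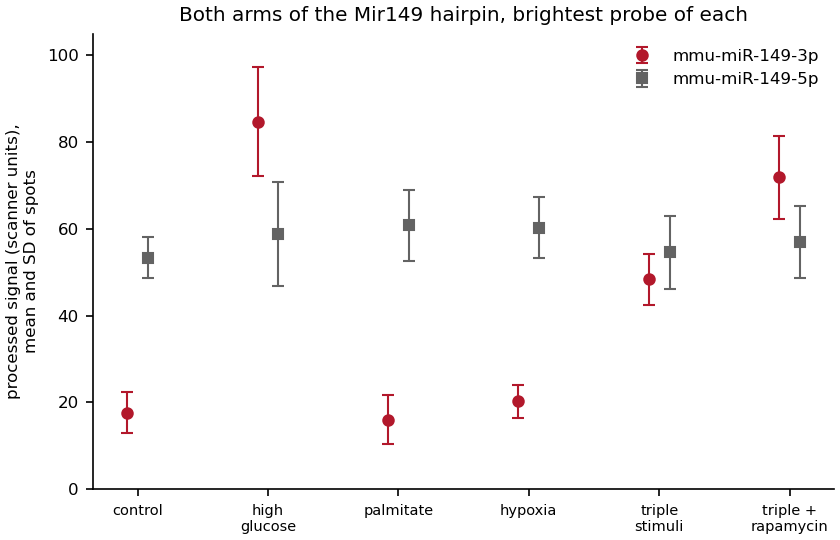
Processed signal (scanner units) of the brightest probe of miR-149-3p and of miR-149-5p on the 6 arrays, with the mean and SD over spots. The 5′ arm stays between 53.4 and 60.9 while the 3′ arm lies between 15.9 and 84.7, and only changes across arrays within an arm can be read.

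miR-135a-5p, the opposite arm of miR-135a-1-3p, was detected on none of the 6 arrays, and the same held for miR-135a-2-3p, miR-135b-5p and miR-135b-3p of its family. The signal of miR-135a-1-3p therefore came with no measured signal of its partner arm. By seed, miR-149-3p shares its 7 bases with miR-1943-5p on this array, which was also detected on none, and with miR-6967-5p and miR-7016-5p, for which the array had no probe of that name. No other RefSeq mouse miRNA shares the seed of miR-135a-1-3p or of miR-680.

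A feature that the stated rule does not name is base composition. Of the 1017 array miRNAs of known sequence, 45 had a mature GC content of 70% or more, among them miR-149-3p but neither other member. Of these 45, 9 were detected on control, 9 on palmitate and 10 on hypoxia. On each of high glucose, triple stimuli and rapamycin 15 were detected, miR-149-3p among them. Of the 972 other miRNAs of known sequence, 126 were detected on each of control and palmitate and 131 on hypoxia. High glucose had 139 and rapamycin 145, and triple stimuli lay between hypoxia and high glucose. The arrays that detected miR-149-3p and miR-680 thus had the higher counts in both sets, but not in the same measure. From control to high glucose the count went from 9 to 15 of 45 GC-rich miRNAs, and from 126 to 139 of 972 others. Over control, 8 of 15 tested GC-rich miRNAs were called higher on high glucose (median log2 difference 0.60), against 6 of 141 other miRNAs of known sequence (median -0.05). In triple stimuli over hypoxia, 7 of 15 were called higher (median 0.43), against 3 of 137 others (median 0.08). With rapamycin over triple stimuli, 2 of 16 were called (median 0.10), against 1 of 145 (median -0.08). The part that base composition has in the members' signal was not tested.

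Likeness of pattern was measured as Pearson's r of the floored log2 scaled signals over the 6 arrays, among 181 miRNAs detected on at least 3 arrays; the 6 points share the same libraries, and no p-value is given. These values describe the members and support nothing, because the control and high glucose arrays that chose them supply much of the range. A miRNA below the array's floor is also set to that floor, so miR-149-3p, miR-680, miR-721 and miR-290-5p hold identical values on control, palmitate and hypoxia by construction. The miRNA most like miR-149-3p was miR-6538 (r = 0.996), followed by miR-211-3p, miR-2861, miR-5126 and miR-3960 (0.989 to 0.992). The most like miR-135a-1-3p were miR-2861 (0.993), miR-5126 and miR-3102-5p (both 0.993), then miR-149-3p (0.972) and miR-6538 (0.966). For miR-680 they were miR-721 (0.991), miR-6378, miR-290-5p, miR-211-3p and miR-5126 (0.972 to 0.988). miR-5126 appears for all 3 members, and its log2 difference from control was 2.53 on high glucose, 0.06 on palmitate, 0.34 on hypoxia, 1.39 on triple stimuli and 2.02 with rapamycin.

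The scanner software also sums the probes of a miRNA and makes its own detection call, which is looser here: it called all 3 members detected on all 6 arrays, control included. Its sum for miR-149-3p was 5.62 ± 1.90 (software error) on control, 26.1 ± 3.09 on high glucose, 5.36 ± 1.95 on palmitate, 6.38 ± 1.92 on hypoxia, 16.7 ± 2.32 on triple stimuli and 23.0 ± 2.74 with rapamycin. For miR-135a-1-3p, in the same order, the sums were 7.80 ± 1.37, 27.4 ± 2.19, 9.31 ± 1.43, 11.2 ± 1.45, 17.8 ± 1.65 and 26.1 ± 2.01. For miR-680 they were 7.84 ± 1.36, 42.1 ± 2.50, 9.31 ± 1.42, 9.47 ± 1.38, 18.7 ± 1.61 and 29.8 ± 1.96. Whether a member was gained or merely rose thus depends on the detection rule, while the order of the arrays from high glucose down to triple stimuli was the same in the sums. For miR-135a-1-3p the sums on high glucose and with rapamycin differed by less than their software errors.

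The authors' deposited table takes a different sum again. For every miRNA above a column's floor, its value equals 1 factor per column times the sum of only those probes whose software signal exceeded 3 times its software error, within 0.1%; this was found after the values were seen. All 18 member values in the authors' deposited table match exactly 1 subset of probes, and in all 18 it is the subset given by that rule. For miR-149-3p 1 of 2 probes entered on every array. For miR-135a-1-3p 2 of 4 entered on control, palmitate and hypoxia, 3 on high glucose, and 4 on both triple stimuli arrays. For miR-680 the control value rests on 1 of 4 probes, and every other value on all 4.

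This changes the apparent size of the difference for miR-680. From control to the scanner file labelled high glucose, the sum over all 4 probes rose 5.37-fold, but the sums behind the values of the authors' deposited table differ 19.1-fold, and the deposited values themselves, 0.104 in the control column and 1.44 in the column labelled palmitate, differ 13.8-fold. Between control and hypoxia, the sum over all 4 probes differed 1.21-fold and the authors' deposited table gives 0.104 and 0.416, a 3.99-fold difference. For miR-149-3p, with the same probe on every array, the sums behind the authors' deposited table differ 4.83-fold between control and the scanner file labelled high glucose, near the 4.65-fold of both probes. For miR-135a-1-3p they differ 4.55-fold, against 3.51-fold over all 4 probes.

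**Figure D5:**
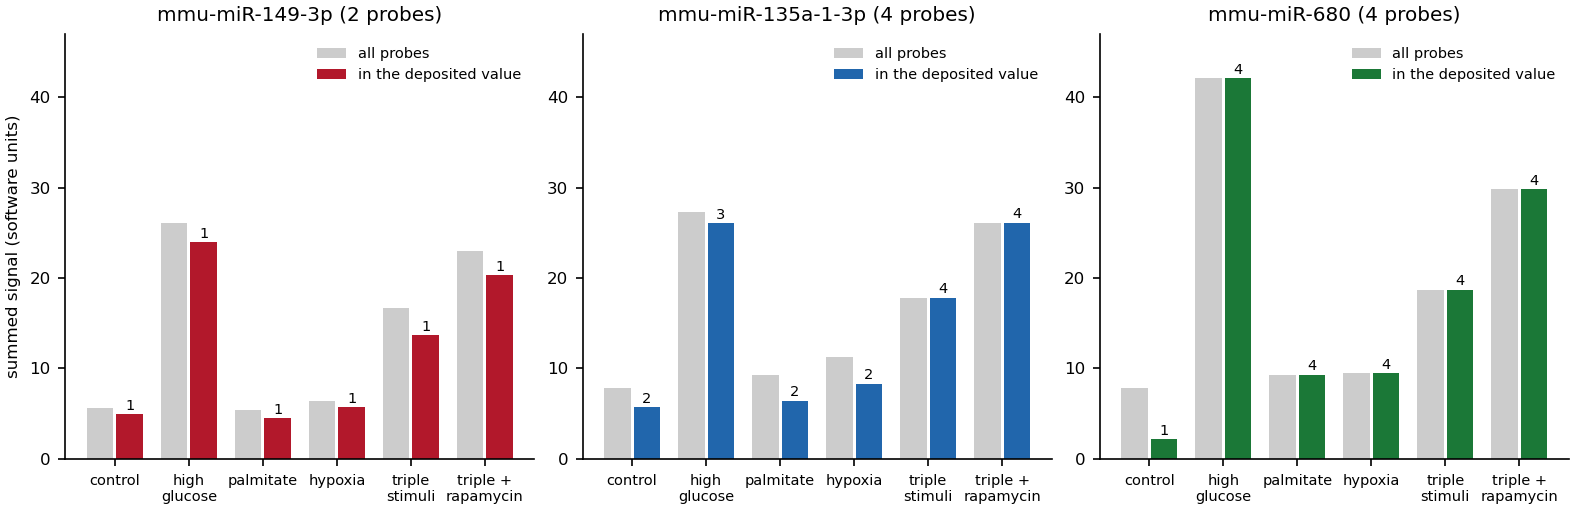
Summed signal per array (software units) of each member, over all its probes in grey and over the probes that enter the authors' deposited value in colour, with the number of those probes above the bar; arrays carry the scanner files' labels. For miR-680 the control bar holds 1 of 4 probes, 2.20 of a total of 7.84, and all other bars hold 4.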

How the data were processed

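Single-colour Agilent mouse miRNA arrays were analysed, 6 in all and 1 per condition, grouped by sample title; the scanner files carry 1 slide identifier, so no slide batch was modelled. Per the file headers, images were quantified with Agilent Feature Extraction 10.7.3.1. The values used are the authors' deposited intensity values per spot (processed signal: background-subtracted and spatially detrended, linear, not normalised between arrays), with the software's flags and its probe and miRNA sums. The authors' deposited value table holds 1 linear number per miRNA, in other units. Outlier spots were left out and spots averaged per probe. Scaled signals were floored at the array's lowest detected-probe signal before log2. The call rule was tested on simulated data, without scaling and only for miRNAs detected on both arrays. That simulation therefore did not test calls from bounds or the scaling. With 1 array per condition, precision is limited by the number of arrays. The miRNAs named are the members, all miRNAs gained with a bound of 1.5-fold and the first below it, opposite arms and family, same-seed miRNAs, and the 5 most alike. Gained miRNAs with the detection pattern of miR-149-3p and miR-680 are named too. Members and lists were chosen with earlier results of these data known. Mature sequences matched 1017 of 1247 array names. Alternatives covered scaling, background correction, probe summary, detection rule, spot subsets, fold threshold, exchanged labels and the deposited table. The software was Python 3.11.15 with numpy 2.4.6 and pandas 2.3.3, and limma 3.58.1 in R 4.3.3.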

Additional observations from a re-analysis of the deposited data

How the results depend on the processing

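Across all 17 alternatives the members were detected in 8 to 12 of 12 cases on the arrays named palmitate, hypoxia, triple stimuli and rapamycin. Alternative scaling, background correction, probe summary and fold threshold could not change this count, because they leave the spot flags behind detection as they are. With exchanged labels and in the deposited table, the array named palmitate is the high glucose scanner file, which the choice used. Of 170 recomputed counts, 139 stayed within 1.5 times the reported one, 24 were lower and 7 higher; of 386 member differences, 335 moved by less than the spot spread, 38 moved further and 13 reversed. With normexp background correction and an offset of 50, changed together, the count of members called higher was 1 for high glucose over control and 0 for triple stimuli over control, rapamycin over control, triple stimuli over hypoxia, rapamycin over triple stimuli and high glucose over triple stimuli. With the mean of all probes, which includes the dim short ones, it was 0 for triple stimuli over control, triple stimuli over hypoxia and rapamycin over triple stimuli. At 2-fold it was 1 for triple stimuli over control, triple stimuli over hypoxia and high glucose over triple stimuli, and 0 for rapamycin over triple stimuli. For triple stimuli over hypoxia it was 1 with the 75th percentile of all probes, the median, quantile normalisation, the upper part of the array, and detection at 0.8 of spots. For rapamycin over triple stimuli it was 2 without scaling and 3 with the 75th percentile of all probes. For hypoxia over control it was 1 without scaling, with spike-in scaling and in the deposited table.

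With the labels of high glucose and palmitate exchanged, the count was 0 for high glucose over control, over triple stimuli and over palmitate, and 3 for palmitate over control. In the deposited table it was 1, 0, 0 and 3. Exchanged, the log2 differences of high glucose over triple stimuli were -1.03 for miR-149-3p, -0.82 for miR-135a-1-3p and -0.53 for miR-680, and of high glucose over palmitate -1.78, -1.64 and -1.63. In the deposited table they were -1.33, -1.20 and -0.74 over triple stimuli and -2.03, -1.64 and -1.80 over palmitate, and -0.23 for miR-149-3p in high glucose over control. These reversals follow from the exchange of labels itself. Where neither array detects a member under an alternative, no value is given.

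Scaling moved the median log2 difference of all miRNAs in high glucose over control from -0.02 to 0.26 without scaling and to -0.15 with quantile normalisation. Over all miRNAs, calls higher and lower in high glucose over control were 18 and 0, with 14 and 2 under median scaling and 29 and 0 without scaling. For triple stimuli over control they were 12 and 0 (8 and 3 with the 75th percentile of all probes, 29 and 0 without scaling, 37 and 0 with spike-in scaling), for rapamycin over control 18 and 3 (16 and 11 with the median, 33 and 0 without scaling, 37 and 0 with spike-in scaling), for triple stimuli over hypoxia 17 and 0 (5 and 0 with the median, 6 and 0 with quantile normalisation, 8 and 0 with the 75th percentile of all probes), for rapamycin over triple stimuli 4 and 3 (9 and 0 with the 75th percentile of all probes), for hypoxia over control 1 and 3 (12 and 0 with spike-in scaling), for palmitate over control 0 and 4 (4 and 0 with spike-in scaling), and for high glucose over palmitate 16 and 0 (14 and 4 with the 75th percentile of all probes). No paired analysis was possible because each condition has 1 array.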
